A study of Homo sapiens with 6 samples.

Results

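ARC and 9 immediate-early genes (FOS, FOSB, FOSL2, JUN, JUNB, EGR1, EGR3, NR4A1 and IER2) were followed through a pull-down of the long non-coding RNA CyCoNP (LINC02381). They are 10 of the 60676 genes in the count table and were found there by gene symbol. ARC was chosen by its counts in the CyCoNP pull-down relative to input, so its values are given as a description with no test, and the question put to the other 9 genes was whether they were recovered in the same way. All libraries came from SK-N-BE, a human neuroblastoma cell line, after 1.5 days of differentiation with 10 µM retinoic acid. Biotinylated antisense DNA probes against CyCoNP (CyCoNP PD, 2 libraries) or against the bacterial LacZ sequence, which human cells do not have (LacZ PD, 2 libraries), were added to a native cell extract and collected on streptavidin beads. A share of the extract taken before the probes were added gave the input (2 libraries). The RNA was sequenced as Nanopore PCR-cDNA. There was no cross-linking in these libraries, dextran sulfate was added to the pull-downs only, and 1 cell line stands for all groups. No library came from undifferentiated cells or from cells given an acute stimulus, so induction of these genes cannot be measured here.

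Immediate-early genes are transcribed within minutes of a stimulus, from factors already present in the cell, and their mRNAs are short-lived. FOS, FOSB and FOSL2 pair with JUN and JUNB to form the transcription factor AP-1, EGR1 and EGR3 are zinc finger transcription factors, NR4A1 is an orphan nuclear receptor, and IER2 is a nuclear protein. ARC differs from them in that it encodes no transcription factor. Its protein derives from a retrotransposon Gag protein, controls the endocytosis of AMPA receptors at synapses and can form capsid-like shells, and its mRNA travels into dendrites.

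An antisense probe may pair directly with an RNA other than its target. For FOS, EGR1, JUN and JUNB, the CyCoNP probe with the longest complementary stretch in that gene is therefore shown first. These stretches include the longest and the shortest found among the 10 members. The 22 CyCoNP probes have 20 bases each. Each is printed 5′ to 3′, with the longest stretch that is exactly complementary to the named gene's canonical transcript (GENCODE v44) in capitals, and each transcript site is printed with the complementary bases in capitals and up to 5 bases on either side. Probes are from the study's oligonucleotide list.
FOS, CyCoNP probe 20: CCACCTCAACAAacctttac
FOS, transcript site: atgcaTTGTTGAGGTGGtctga
EGR1, CyCoNP probe 10: atCAGGCTCCAGGatgcaac
EGR1, transcript site: ttttcCCTGGAGCCTGcaccc
JUN, CyCoNP probe 10: aTCAGGCTCCaggatgcaac
JUN, transcript site: agtggGGAGCCTGAagccg
JUNB, CyCoNP probe 1: tggcgaaaaGGGAGGGTgaa
JUNB, transcript site: cagggACCCTCCCcagac
The longest stretch was 12 bases for FOS, 11 for EGR1, 9 for JUN and 8 for JUNB. For ARC it was 11 bases, positions 9 to 19 of probe 1 counted from its 5′ end, which includes the 8 bases marked for JUNB. In CyCoNP itself, searched on its longest transcript, the longest stretch was 20 bases, a whole probe. ARC and EGR1 thus shared a stretch of equal length with the probe set, and 21.9% of the 12528 tested genes with a canonical transcript had a stretch of 11 bases or longer.

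The libraries differed widely in depth, and this sets how much each value can bear. Levels are given in CPM, the counts per 1000000 counts of a library. Input libraries 1 and 2 held 717905 and 791970 counts, CyCoNP PD 1 and 2 held 1512148 and 514882, and LacZ PD 1 and 2 held only 18870 and 140115. A gene with 3 counts would therefore stand at 4.18 and 3.79 CPM in the inputs, at 1.98 and 5.83 CPM in CyCoNP PD, and at 159 and 21.4 CPM in LacZ PD. CyCoNP, the target, stood at 27.9 and 49.2 CPM in input, 7729 and 6811 CPM in CyCoNP PD and 53.0 and 143 CPM in LacZ PD. GAPDH, the study's negative control, stood at 2024 and 3288 CPM in input, at 5076 and 4176 CPM in CyCoNP PD and at 7313 and 6252 CPM in LacZ PD, so a mild rise over input is also seen for a control mRNA, in both kinds of pull-down. All 10 neuroblastoma markers (such as MYCN and CHGA) were detected in both inputs, and SOX10, PTPRC and HBB, which mark Schwann and blood cells, had 0 counts in all 6 libraries.

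ARC was nearly absent from input and abundant in CyCoNP PD. Each input library held 3 ARC counts. CyCoNP PD 1 held 164 and CyCoNP PD 2 held 43, whereas LacZ PD 1 held 0 and LacZ PD 2 held 2. As levels these were 4.18 CPM (95% Wilson interval 1.42 to 12.3) and 3.79 CPM (1.29 to 11.1) in input, 108 CPM (93.1 to 126) and 83.5 CPM (62.0 to 112) in CyCoNP PD, and 0 CPM (upper limit 204) and 14.3 CPM (3.91 to 52.0) in LacZ PD. Both CyCoNP PD libraries lay above both inputs, which the choice of ARC by these counts fixed in advance. They also lay above LacZ PD 2, a contrast that uses the same CyCoNP PD counts. The interval of LacZ PD 1 spanned the values of every other library. The intervals describe counting error alone, because the reads carry no molecular identifiers and copies made in PCR are counted as separate molecules.

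The pooled ARC share of all counts was 25.7 times higher in CyCoNP PD than in input (exact interval 11.6 to 70.8). The ratio was 26.0 (8.73 to 127) between the libraries numbered 1 and 22.0 (7.06 to 111) between those numbered 2. A high ratio follows from the choice of ARC, and the width of the intervals comes from the 6 ARC counts in input. Against LacZ PD the pooled ratio was 8.12 (2.22 to 67.5), resting on 2 counts. Its numerator is the CyCoNP PD level for which ARC was chosen, so this ratio too is a description and no independent test. At the pooled CyCoNP PD level, itself high by the choice of ARC, LacZ PD 2 would have held 14.3 ARC counts where 2 were found. LacZ PD 1 would have held 1.93, so the absence of ARC there is within what its depth allows. LacZ PD over input gave 3.17 (0.312 to 17.7) for ARC, an interval that spans no difference and a rise of the size seen for GAPDH, for which the same ratio was 2.37 (2.21 to 2.54). On the log2 scale the fitted change of ARC was 4.60 for CyCoNP PD against input, 1.26 for LacZ PD against input and 3.34 for CyCoNP PD against LacZ PD. Without LacZ PD 2, the LacZ comparisons rest on a library with 0 ARC counts, and these values became -4.52 and 9.14.

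**Figure D1:**
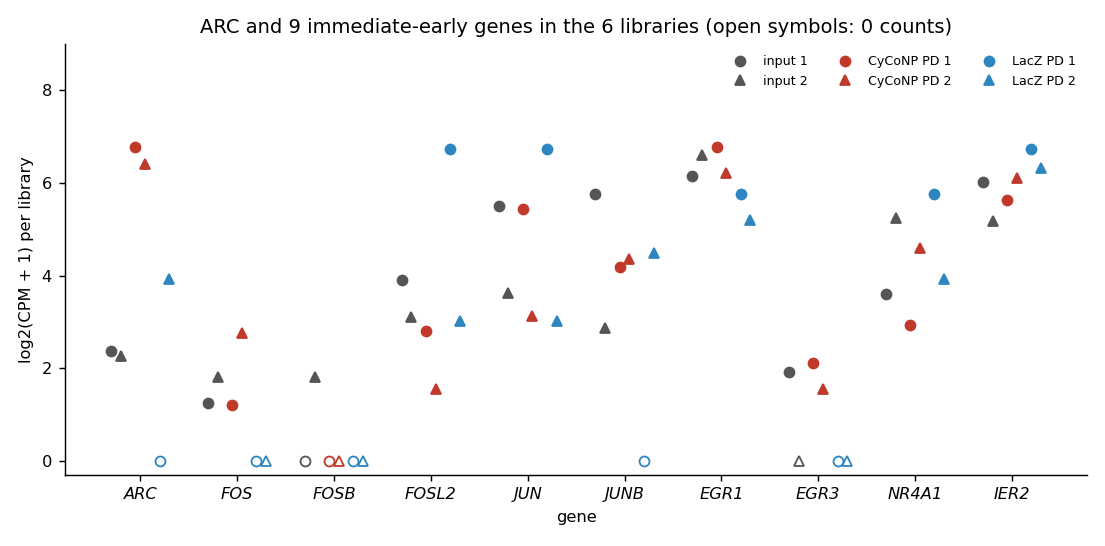
Level of each gene in each of the 6 libraries, as log2(CPM + 1), with input in grey, CyCoNP PD in red, LacZ PD in blue, circles for libraries numbered 1, triangles for those numbered 2 and open symbols for 0 counts. ARC stands at 4.18 and 3.79 CPM in input and at 108 and 83.5 CPM in CyCoNP PD, whereas EGR1 and IER2 lie in the same range in input and CyCoNP PD.

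EGR1, which couples growth factor and synaptic signals to transcription, gives the plainest contrast with ARC. EGR1 reached 50 and 76 counts in the inputs, 164 and 38 with the CyCoNP probes, and 1 and 5 with the LacZ probes, so its count equalled that of ARC in CyCoNP PD 1 (164 each) and was close to it in CyCoNP PD 2 (38 against 43), but was many times that of ARC in each input. Its levels were 69.6 and 96.0 CPM in input, 108 and 73.8 CPM in CyCoNP PD, and 53.0 and 35.7 CPM in LacZ PD. The groups input and CyCoNP PD overlapped. The log2 change between them was 0.20 (95% interval -1.10 to 1.50, edgeR quasi-likelihood test, Benjamini-Hochberg adjusted p = 1.00), and it ran from -0.13 to 0.56 when single libraries were left out.

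IER2 reached 46 and 28 counts in the inputs, 73 and 35 with the CyCoNP probes, and 2 and 11 with the LacZ probes. Its level was 64.1 and 35.4 CPM in input, 48.3 and 68.0 CPM in CyCoNP PD, and 106 and 78.5 CPM in LacZ PD, where it was the member with the highest mean CPM. Input and CyCoNP PD overlapped, and both LacZ PD values were above the rest, although the first rests on 2 counts. The log2 change in CyCoNP PD against input was 0.30 (95% interval -1.02 to 1.62, edgeR adjusted p = 1.00).

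JUN, JUNB and FOSL2, the AP-1 genes among the members with enough counts to test, showed no rise like that of ARC. JUN stood at 44.6 and 11.4 CPM in input (32 and 9 counts), at 42.3 and 7.77 CPM in CyCoNP PD (64 and 4 counts), and at 106 and 7.14 CPM in LacZ PD (2 counts and 1 count). JUNB stood at 52.9 and 6.31 CPM in input (38 and 5 counts), at 17.2 and 19.4 CPM in CyCoNP PD (26 and 10 counts), and at 0 and 21.4 CPM in LacZ PD (0 and 3 counts). For both genes the 2 input libraries lay further apart than the group means, and the JUN values of CyCoNP PD were apart in the same direction. FOSL2 stood at 13.9 and 7.58 CPM in input (10 and 6 counts), at 5.95 and 1.94 CPM in CyCoNP PD (9 counts and 1 count), and at 106 and 7.14 CPM in LacZ PD (2 counts and 1 count). The 2 CyCoNP PD values of FOSL2 were below both inputs. The log2 changes in CyCoNP PD against input were 0.06 (95% interval -1.81 to 1.93) for JUN, -0.56 (-2.40 to 1.28) for JUNB and -1.16 (-3.46 to 1.15) for FOSL2, each with an edgeR adjusted p of 1.00. The direction of JUN and JUNB depends on single libraries: JUN ran from -1.71 without CyCoNP PD 1 to 1.19 without input 1, and JUNB was 1.47 without input 1.

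NR4A1 was lower in the libraries numbered 1 than in those numbered 2, in input and in CyCoNP PD. It stood at 11.1 and 36.6 CPM in input (8 and 29 counts), at 6.61 and 23.3 CPM in CyCoNP PD (10 and 12 counts), and at 53.0 and 14.3 CPM in LacZ PD (1 count and 2 counts). Within each number CyCoNP PD was below input, and the groups overlapped. The log2 change in CyCoNP PD against input was -0.77 (95% interval -2.61 to 1.07, edgeR adjusted p = 1.00), and 0.47 without input 2.

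FOS, FOSB and EGR3 were too low to test. FOS reached 1 count and 2 counts in the inputs, 2 and 3 with the CyCoNP probes and 0 with the LacZ probes. FOSB had 2 counts, both in input 2, and it overlaps ERCC1 on the opposite strand. EGR3 reached 2 and 0 counts in the inputs, 5 and 1 with the CyCoNP probes and 0 with the LacZ probes. The pooled ratio of CyCoNP PD to input was 1.24 (exact interval 0.242 to 7.99) for FOS and 2.23 (0.400 to 22.6) for EGR3. Between single libraries the interval of FOS reached 56.0 for number 1 and 27.6 for number 2, so these few counts bound its change only loosely. FOSB had 0 counts in CyCoNP PD, and the interval of its ratio reached 3.97.

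Of the 6 members other than ARC that had the 10 counts needed for testing, 0 were called higher or lower in CyCoNP PD against input by edgeR (adjusted p under 0.05 and a log2 change beyond 1), where 0.127% of the 12565 tested genes were called in either direction (0.119% higher and 0.00796% lower). DESeq2 called 0 of the 6 as well, but gave no adjusted p for 3 of them, against 0.573% of the tested genes called. At an unadjusted p under 0.05, 0 of the 6 passed with either tool, where 5.40% of all tested genes did with edgeR. The background is so low that a count of 0 among 6 genes says little by itself. The intervals bound the change of each gene: the upper 95% limits of the 6 log2 changes ran from 1.07 (NR4A1) to 1.93 (JUN). The fitted value of 4.60 for ARC lies above these limits, but ARC was chosen for a high value, so that contrast is a description. The pooled ratio of CyCoNP PD to input, which needs no model, was 1.19 (0.951 to 1.50) for EGR1, 1.09 (0.801 to 1.48) for IER2, 1.24 (0.826 to 1.87) for JUN, 0.624 (0.389 to 0.994) for JUNB, 0.443 (0.249 to 0.771) for NR4A1 and 0.466 (0.189 to 1.09) for FOSL2. These counting intervals leave out the spread between libraries, which was larger: between the 2 libraries of a group the chi-square per degree of freedom was 18.4 in input, 14.3 in CyCoNP PD and 4.11 in LacZ PD.

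**Figure D2:**
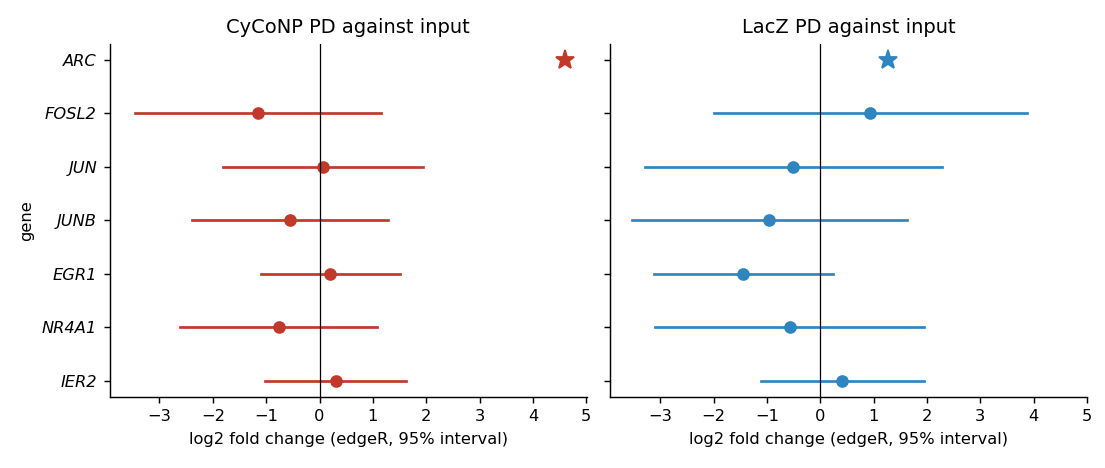
Log2 fold change against input for the 7 members with at least 10 counts, in CyCoNP PD (left) and LacZ PD (right), with 95% intervals from edgeR. ARC (star, at 4.60 and 1.26) is shown without an interval, as a description, and in CyCoNP PD the upper limits of the other 6 end at 1.93 or below.

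With the control probes, 0 of the 6 members were called in LacZ PD against input by edgeR, and 0% of all tested genes were, and 0 passed at an unadjusted p under 0.05, where 7.02% of all tested genes did. DESeq2 also called 0, with no adjusted p for 5 of the 6, against 0.43% of the tested genes. The log2 changes ran from -1.44 for EGR1 (95% interval -3.12 to 0.23, adjusted p = 0.742) to 0.94 for FOSL2 (-1.99 to 3.87, adjusted p = 0.836), which was -0.74 without LacZ PD 1, and the median over all tested genes was -0.68. In CyCoNP PD against LacZ PD 0 of the 6 were called by edgeR, and 0% of all tested genes, and 0 passed at an unadjusted p under 0.05 (5.20% of all tested genes), with 0 called by DESeq2 (no adjusted p for 4 of the 6) against 0.302% of the tested genes. EGR1 had the highest value there, with a log2 change of 1.65 (-0.03 to 3.32, unadjusted p = 0.0536, adjusted p = 0.871), where the median over all tested genes was 0.64. FOSL2 had the lowest, -2.10 (-5.15 to 0.96, adjusted p = 0.871), which was -0.43 without LacZ PD 1, where FOSL2 had 2 counts. These comparisons share libraries with each other, and both LacZ PD comparisons rest on 33 counts for the 10 genes together. A p that misses the threshold does not show that levels were equal.

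Sums over the genes need no model. The 9 genes other than ARC summed to 260 and 198 CPM in input, 233 and 202 CPM in CyCoNP PD, and 424 and 164 CPM in LacZ PD, where the sums rest on 8 and 23 counts. Input and CyCoNP PD overlapped. Of all counts on the 10 genes, ARC made up 1.71% in input (6 of 350, Wilson interval 0.788 to 3.69), 31.2% in CyCoNP PD (207 of 664, 27.8 to 34.8) and 6.06% in LacZ PD (2 of 33, 1.68 to 19.6). The 2 CyCoNP PD libraries gave 31.7% and 29.3%, close to each other despite their difference in depth. The higher share in CyCoNP PD than in input follows from the choice of ARC, and the contrast with LacZ PD uses the same CyCoNP PD counts.

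Per kilobase of transcript, the order of the genes changed between input and CyCoNP PD mainly through ARC, whose rise follows from its choice. In input the mean levels were 26.4 ± 5.93 CPM per kilobase for EGR1 (SD, n = 2), 23.6 ± 9.62 for IER2, 16.2 ± 18.0 for JUNB, 9.61 ± 7.25 for NR4A1 and 8.59 ± 7.21 for JUN. Each of these 5 overlapped its neighbour in the order. FOSL2 (1.60 ± 0.669), ARC (1.35 ± 0.0937) and FOS (0.931 ± 0.381) followed, and all values of JUN were above those of FOSL2. In CyCoNP PD ARC stood first at 32.5 ± 5.98 CPM per kilobase, overlapping EGR1 at 29.0 ± 7.81 and, through it, IER2 at 27.5 ± 6.60. JUNB (10.0 ± 0.861) was below these 3 and overlapped JUN (7.69 ± 7.50), which overlapped NR4A1 (6.02 ± 4.75), while both NR4A1 values were below both of JUNB. The order depends on the division by length, and whether counts of these cDNA reads rise with length was not tested. In CPM, both IER2 values in CyCoNP PD (48.3 and 68.0) were below those of EGR1 (108 and 73.8) and ARC (108 and 83.5). In input, both FOSL2 values (13.9 and 7.58 CPM) were above those of ARC (4.18 and 3.79 CPM).

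A wider list of 52 immediate-early and activity-regulated genes, which also holds inhibitors and RNA decay factors induced by the same signals, was examined beside the 10. Of these, 32 had enough counts, and edgeR called 0 in CyCoNP PD against input, beside 0.127% of all tested genes. Of the 32, 10 had a log2 change above 0, and the median was -0.43, beside -0.01 over all tested genes. DESeq2 also called 0, beside 0.573% of all tested genes, with no adjusted p for 19 of the 32. With shares so low, a count of 0 calls says little for this list and for those below. The 20 genes that could not be tested include NPAS4, BDNF, EGR2, EGR4, NR4A2 and NR4A3, which are typical of stimulated neurons. The 3 most abundant were VGF, a secreted neuropeptide precursor, KLF6, a zinc finger transcription factor, and ID3, an inhibitor of helix-loop-helix factors. VGF stood at 1251 and 375 CPM in input, 375 and 258 CPM in CyCoNP PD and 636 and 328 CPM in LacZ PD (log2 change in CyCoNP PD against input -1.24 ± 0.67 SE, edgeR adjusted p = 1.00). KLF6 had a log2 change of -0.26 ± 0.64, and ID3, at 79.4 and 72.0 CPM in input and 160 and 113 CPM in CyCoNP PD, of 0.93 ± 0.60, with the same adjusted p. ID3 was above both inputs in both kinds of pull-down, since it stood at 265 and 171 CPM in LacZ PD.

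The range of the 32 genes ran from -2.68 for ZFP36L2, which promotes decay of AU-rich mRNAs, to 2.57 for FOSL1, another AP-1 subunit. Both were picked out after their values were seen. FOSL1 rests on 0 and 1 counts in the inputs against 6 and 3 with the CyCoNP probes. ZFP36L2 reached 57 and 30 counts in the inputs, 21 and 0 with the CyCoNP probes and 0 and 1 with the LacZ probes, so all pull-down libraries were below both inputs in CPM, although LacZ PD 1 is too shallow to show a level of this size. No other gene of the list had an unadjusted p under 0.05 with edgeR, and the adjusted p of ZFP36L2 was 0.582. Without CyCoNP PD 1 it passed the threshold (log2 change -7.66, adjusted p = 0.0220), with CyCoNP PD 2, where it had 0 counts, then the only library of its group. A block on the replicate number also brought it past the threshold with edgeR (-2.92, adjusted p = 0.00188) but not with DESeq2 (-3.53, adjusted p = 0.178).

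Genes upstream of immediate-early transcription (serum response factor and its ETS and myocardin-related partners, CREB and its coactivators, MEF2 factors, and the Ras, MAP kinase and RSK kinases) were examined next. Of 34 genes 32 were tested, and edgeR and DESeq2 each called 0 in CyCoNP PD against input, beside 0.127% and 0.573% of all tested genes. DESeq2 gave no adjusted p for 18 of the 32. At an unadjusted p under 0.05, 0 passed with either tool, beside 5.40% of all tested genes with edgeR. The median log2 change was -0.50, with 11 of 32 above 0 where 49.4% of all tested genes were. MAP2K1, the kinase that phosphorylates ERK, stood at 173 and 260 CPM in input and 147 and 148 CPM in CyCoNP PD (log2 change -0.51 ± 0.62 SE). NRAS had a log2 change of -0.54 ± 0.63 and CREM, a CREB family member, of 0.20 ± 0.64. The edgeR adjusted p was 1.00 for these 3 genes.

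The mRNAs of proteins that bind ARC protein were set beside ARC mRNA. Of 23 genes for endocytic adaptors, dynamins, endophilins, CaM kinase II, scaffold and ubiquitin ligase partners 18 were tested. Their median log2 change in CyCoNP PD against input was -0.04. EdgeR and DESeq2 each called 0, beside 0.127% and 0.573% of all tested genes, and DESeq2 gave no adjusted p for 9 of the 18. Among the AP-2 adaptor subunits, AP2B1 had a log2 change of -0.88 ± 0.59 SE, AP2S1 of 0.04 ± 0.69 and AP2M1 of 0.75 ± 0.61, each with an edgeR adjusted p of 1.00. Of the 18 genes, 2 had an unadjusted p under 0.05 with edgeR and 0 with DESeq2. Over all tested genes 5.40% had an unadjusted p under 0.05 in this comparison with edgeR. The 2 genes were WASF1, a regulator of actin assembly (2.21, adjusted p = 0.602), and CAMK2D (-1.92), named here after their values were seen. WASF1 stood at 19.5 and 15.2 CPM in input and at 118 and 31.1 CPM in CyCoNP PD, both above input, with CyCoNP PD 1 far above CyCoNP PD 2.

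The mRNAs of proteins that act on ARC mRNA, namely FMRP and its relatives, Pur and Staufen proteins, HNRNPA2B1, and the exon junction and nonsense-mediated decay factors that limit its translation, were all tested, 22 of 22. EdgeR and DESeq2 called 0 in CyCoNP PD against input, beside 0.127% and 0.573% of all tested genes, and DESeq2 gave no adjusted p for 7 of the 22. At an unadjusted p under 0.05, 0 passed with either tool, beside 5.40% of all tested genes with edgeR. The median log2 change was 0.07. HNRNPA2B1, which binds a dendritic targeting element, stood at 510 and 356 CPM in input and 864 and 695 CPM in CyCoNP PD (log2 change 0.93 ± 0.60 SE), RBM8A, an exon junction protein, had a log2 change of 0.09 ± 0.65, and FXR1, a relative of FMRP, of -0.47 ± 0.70, each with an edgeR adjusted p of 1.00. Genes that share with ARC an origin from Gag proteins, the PEG10, RTL and PNMA families among them, gave 12 tested genes of 22. Of these, 0 were called by edgeR or DESeq2, beside the same shares of all tested genes, with no adjusted p from DESeq2 for 6 of the 12. With edgeR 0 had an unadjusted p under 0.05, and the median was -0.05. Of these, MOAP1 had a log2 change of 0.16 ± 0.64, RTL8A of 0.62 ± 0.65 and PEG10 of -0.30 ± 0.65, with an adjusted p of 1.00.

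The genes most like ARC in their pattern over the 6 libraries were sought among all tested genes. The measure was the Euclidean distance of log2(CPM + 1) over 6 libraries. It uses the CyCoNP PD and input values by which ARC was chosen, so it describes and does not test. SLC38A10, of the SLC38 family of amino acid transporters, was closest (distance 0.992), with 3 and 4 counts in the inputs, 302 and 54 with the CyCoNP probes and 0 and 2 with the LacZ probes. LINC00639 (7, 5, 99, 38, 0 and 2 counts in the same order), ARHGAP31 (4, 8, 112, 50, 0 and 4), the lncRNA ENSG00000240801 (3, 1, 75, 59, 0 and 3) and RBMS2 (7, 6, 156, 70, 0 and 1) came next. With a pseudocount of 10 in place of 1, 3 of these 5 (SLC38A10, LINC00639 and RBMS2) were still among the 5 closest. Among 12564 genes ranked by this distance, JUNB was 1318th, NR4A1 7333rd, EGR1 8225th, JUN 8595th, IER2 9111th and FOSL2 10562nd.

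The transcripts of the 10 genes were compared in features that their choice did not use. The median length of the canonical transcript was 3043.5 bases, close to the 2888.5 bases of all tested genes, and the median number of exons was 2.5 against 8. Median GC content was 56.9% against 47.6%. The ARC gene lies on chromosome 8, on the minus strand from 142611049 to 142614479 (GRCh38, GENCODE v44), and has 3 exons and 2950 transcript bases, of which 66.8% are G or C. A GC content above that of ARC was found in 1.16% of tested genes. JUNB followed with 64.9% and IER2 with 63.0%, and their log2 changes in CyCoNP PD against input were -0.56 and 0.30. Of the 377 tested genes with a GC content at or above that of JUNB, 5 (1.33%) had a log2 change in CyCoNP PD against input at or above that of ARC and 3 (0.796%) were called higher, with a median of -0.13. Of the 12528 tested genes with a canonical transcript, 125 (0.998%) were at or above ARC and 15 (0.120%) were called higher. ARC, chosen for this value, is itself counted among the 5 and the 125. Whether GC content bears on recovery was not tested.

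The longest stretch complementary to a CyCoNP probe ranged from 8 to 12 bases over the 10 members. The median longest stretch was 10 bases for the 10 members and for all tested genes. EGR1 with 11 bases had a log2 change of 0.20. FOS, with the longest stretch of the members (12 bases), had 5 counts in CyCoNP PD and 3 in input, too few to test. Of the 1966 tested genes whose longest stretch was 11 bases, 14 (0.712%) had a log2 change at or above that of ARC and 2 (0.102%) were called higher. Of the 581 with 12 bases these were 3 (0.516%) and 1 (0.172%), and of the 1315 with 8 bases 25 (1.90%) and 0. ARC itself is counted among the 14. Whether pairing with the probes bears on recovery was not tested. Against the 5 LacZ probes the longest stretch was 8 bases in ARC, the median of the tested genes. Only exact stretches were searched, without gaps or G-U pairs.

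Because the study examined miR-4492 together with CyCoNP, matches to its seed were also counted. The mature sequence (RefSeq, GRCh38.p14, chromosome 11, 118910765 to 118910781, plus strand) has its seed, bases 2 to 8, in capitals.
hsa-miR-4492: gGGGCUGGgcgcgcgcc
The reverse complement of the seed, CCAGCCC, searched on the sense strand of the canonical transcript, occurred in 7 of the 10 members, in ARC 4 times, and in 40.8% of tested genes. FOS, JUN and IER2 had no match. JUNB, EGR1 and FOSL2 had 1 match each and NR4A1 had 2. None of these 4 was called in CyCoNP PD against input, where only 0.127% of all tested genes were, so this says little about the matches. The untested FOSB and EGR3 had 2 and 3. The match is GC-rich, as are these transcripts. TTATTTATT, a motif of AU-rich elements that mark short-lived mRNAs, occurred in 2 of the 10 (FOS and FOSL2) and in 9.39% of tested genes, and not in ARC. A match is a string of letters only, and nothing follows from its presence or absence for binding.

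In the annotation no other gene overlaps ARC. Within 10 kb lie 2 lncRNA genes on the opposite strand, and both had 0 counts in all 6 libraries. JUNB overlaps HOOK2 on the opposite strand, which had between 0 and 7 counts in each library.

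The libraries numbered 1 and 2 differed in the immediate-early genes, in input as in CyCoNP PD. Of the 39 tested genes among the members and the wider list, 28 (71.8%) had a higher CPM in input 1 than in input 2, against 59.0% of all tested genes, and 27 (69.2%) had a higher CPM in CyCoNP PD 1 than in CyCoNP PD 2, against 50.7%. In both at the same time 22 (56.4%) were higher, against 35.1% of all tested genes, and 6 were lower in both. The median log2 ratio of library 1 to library 2 was 0.79 in input and 0.53 in CyCoNP PD, beside 0.14 and 0.03 over all tested genes. Among the members, the log2 ratio was 1.92 in input and 2.29 in CyCoNP PD for JUN, 2.95 and -0.22 for JUNB, -1.65 and -1.81 for NR4A1, and 0.14 and 0.36 for ARC. JUN, JUNB and NR4A1 were thus among the members that differed most between the libraries of a group. The input value of ARC comes from 3 counts in each library, and any gene with equal counts in both inputs has the same 0.14.

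Markers of fibroblasts also differed between the same libraries, but not all in 1 direction. COL1A1, a collagen of fibroblasts, reached 192 and 10 counts in the inputs, 186 and 3 with the CyCoNP probes and 4 and 1 with the LacZ probes, and COL1A2 had 131 and 2, 165 and 1, and 1 and 0. DCN and LUM, proteoglycans of the same cells, did not follow the collagens: their log2 ratio of library 1 to library 2 was 0.50 and -0.73 in input and -1.31 and -2.82 in CyCoNP PD, where the collagens had 4.34 and 5.86, and 4.18 and 5.23. The 10 markers of other cell types summed to 469 and 41.7 CPM in input, 245 and 64.1 CPM in CyCoNP PD, and 265 and 28.5 CPM in LacZ PD, with 6 of the 10 detected in each input and CyCoNP PD library. Their part in the difference of the immediate-early genes was not tested. In such bulk samples, fewer cells of a type and less RNA per cell cannot be told apart.

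**Figure D3:**
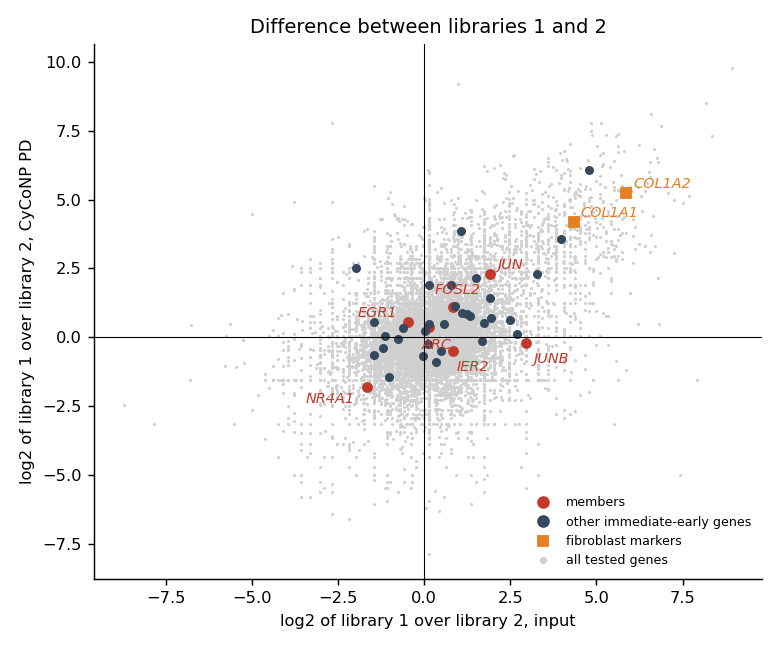
Log2 ratio of CPM in library 1 to library 2 in input (horizontal) and in CyCoNP PD (vertical), with members in red, other immediate-early genes in dark blue, the fibroblast markers COL1A1 and COL1A2 as orange squares and all tested genes in grey. Of the 39 immediate-early genes 22 lie in the upper right quadrant, JUN among them, NR4A1 lies in the lower left, and ARC lies near the origin.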

How the data were processed

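The deposited counts are whole-number gene counts that the authors made from Nanopore PCR-cDNA reads: very short reads were removed, the rest aligned to GRCh38 with minimap2 2.24-r1122 in spliced mode and assigned with Bambu without discovery of new isoforms on an Ensembl annotation. A normalised table that was also given was not used, and CPM was computed here as counts per 1000000 counts of the library. Library totals ran from 18870 to 1512148 counts, and LacZ PD 1 limits every LacZ comparison.

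All 6 libraries, 2 per group, entered 1 edgeR 4.0.16 quasi-likelihood fit (R 4.3.3) with TMM factors and a minimum total of 10 counts per gene (12565 of 60676). P-values were Benjamini-Hochberg adjusted over all of them. A call needed an adjusted p under 0.05 and a log2 change beyond 1. DESeq2 1.42.0, the tool of the authors, was an alternative, with adjusted p-values it did not give left out. The scripts were tested on simulated data with known changes. The libraries of a group are biological duplicates per the study. The p-values rest on the spread between the 2 samples within groups, estimated over all 3 groups together and with information shared across genes. LacZ PD libraries therefore also enter the p-values of CyCoNP PD against input. Wilson and exact conditional intervals (95%) came from scipy 1.17.1. Against the 3 counts of ARC in each input library, ratios with counting intervals are given in place of a bound.

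The members and the gene lists were chosen with earlier results of these data known. The text names all members, from each list the 3 genes with the highest mean CPM over the libraries and every gene called in any comparison, the 5 genes most like ARC, CyCoNP and GAPDH. Others named are said to have been picked after their values were seen, or stand for markers and overlapping genes. Tried besides were other size factors, library size alone, no filter or filterByExpr, a fit to the groups compared alone, a block on the replicate number, and fits without each library in turn.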

Additional observations from a re-analysis of the deposited data

How the results depend on the processing

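The 6 tested members other than ARC stayed uncalled in all 226 values of the alternatives, over 3 comparisons, that came with an adjusted p. For 23 further values DESeq2 gave none, so no call was possible. The log2 change of ARC in CyCoNP PD against input ran from 4.35 to 4.80 over 14 alternatives. In LacZ PD against input it was 1.26 with all libraries and -4.52 without LacZ PD replicate 2, where LacZ PD 1 with 0 counts is then alone (range over left-out libraries -4.52 to 1.61), and in CyCoNP PD against LacZ PD 3.34 and 9.14 (range 2.99 to 9.14). With only the groups compared, ARC was under the count minimum in LacZ PD against input, and filterByExpr removed FOSL2. Leaving out a library turned the direction of some uncalled members. In CyCoNP PD against input JUNB went from -0.56 to 1.47 without input replicate 1, NR4A1 from -0.77 to 0.47 without input replicate 2, and JUN ran from -1.71 to 1.19. Of the 32 other immediate-early genes 0 were called with all libraries and no block and 1, ZFP36L2, without CyCoNP PD replicate 1 (range over left-out libraries 0 to 1).

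Libraries with the same number share only a number in the labels. The deviations from the group means correlated between same-numbered libraries across genes (r = 0.449 between input and CyCoNP PD, 0.268 between input and LacZ PD, 0.257 between CyCoNP PD and LacZ PD), which with 2 libraries a group is a hint only. With the replicate number as a block, edgeR called 192 tested genes higher and 92 lower in CyCoNP PD against input, where it called 15 and 1 without it. DESeq2 called 87 and 35 with the block and 58 and 14 without. In the block fit 1 of the other immediate-early genes was called, ZFP36L2 (log2 change -2.92, adjusted p = 0.00188, against 0.178 with the DESeq2 block; over all alternatives its adjusted p ran from 0.00188 to 0.933), the 6 members stayed uncalled, and ARC had 4.59. The depth of LacZ PD limits what can be said of these genes with the control probes: 3 counts correspond to 159 and 21.4 CPM there.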
